A study of Mus musculus with 8 samples.

Results

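Cytochrome P450 families 2 and 3 were taken as all protein-coding mouse genes whose symbol starts with Cyp2 or Cyp3 followed directly by a letter, without Cyp2e1. The rule found 57 genes in the GENCODE annotation, and 56 of them were among the 24375 genes listed in the authors' deposited tables. The largest subfamilies were Cyp2c with 15 genes, Cyp3a with 9, Cyp2d with 8 and Cyp2j with 8. Cyp2b had 5 genes and Cyp2a had 4, and the subfamilies Cyp2ab, Cyp2f, Cyp2g, Cyp2r, Cyp2s, Cyp2t, Cyp2u and Cyp2w had 1 gene each. The rule reads symbols and no measured value, although the family was picked with earlier results of these data known.

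The study measured liver RNA of mice lacking Cpeb4, which encodes a cytoplasmic polyadenylation element binding protein, by RNA sequencing. There were 8 samples in 4 groups of 2: total liver RNA from Cpeb4 KO mice, total liver RNA from Wild-type mice, and RNA of purified endoplasmic reticulum (ER) from livers of each genotype. The mice that gave ER had been fasted overnight, whereas the feeding state behind the total liver samples, the sex and age of the mice and the reach of the knockout (whole body or liver) are not given in the labels. Whether the 2 samples of a group are separate mice is not labelled either, and the p-values therefore reflect only sample-to-sample spread, which may be technical. The authors' 2 deposited tables each compare knockout with wild-type, and neither names its RNA preparation. They are called here the larger table (23634 genes, 14180 of them tested) and the smaller table (21201 genes, 11661 tested).

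Cytochromes P450 of families 2 and 3 are haem enzymes anchored in the ER membrane that receive electrons from the reductase Por and oxidise drugs, plant compounds, steroids, bile acids and fatty acids. Hepatocytes around the central vein hold most of them. Their genes lie in arrays of young duplicates, and many are switched on by the xenobiotic receptors CAR (Nr1i3) and PXR (Nr1i2) or differ between the sexes under growth hormone. The Cyp2a, Cyp2b, Cyp2f, Cyp2g, Cyp2s and Cyp2t genes share an array on chromosome 7 (GRCm38 positions 25802475 to 27158668). Cyp2c genes lie on chromosome 19, Cyp2d on chromosome 15, Cyp2j on chromosome 4 and Cyp3a on chromosome 5.

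The duplicates are alike enough that a short read can fit several of them, which bears on every level given for a single copy. The coding sequences of Cyp2a4 and Cyp2a5 were 98.5% identical, with 23 differences, and those of Cyp3a41a and Cyp3a41b were 99.9% identical, with 2 differences. The 60-base coding windows of exon 2 that hold the most differences between each pair are shown to let the copies be compared, with capitals at the bases that differ (GENCODE M21, GRCm38).
Cyp2a4 (chr7:26307666-26307725, plus strand): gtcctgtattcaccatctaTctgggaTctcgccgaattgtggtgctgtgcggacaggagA
Cyp2a5 (chr7:26835811-26835870, plus strand): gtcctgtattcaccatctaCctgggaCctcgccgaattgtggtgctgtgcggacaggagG
Cyp3a41a (chr5:145717959-145718018, minus strand): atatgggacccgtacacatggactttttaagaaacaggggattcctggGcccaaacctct
Cyp3a41b (chr5:145582549-145582608, minus strand): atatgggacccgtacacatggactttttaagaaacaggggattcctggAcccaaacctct
Even the most divergent window of Cyp2a4 and Cyp2a5 differed at 3 bases, and that of the Cyp3a41 pair at 1. Outside such sites a read of either copy is the same read. The longest identical coding run of Cyp2a4 and Cyp2a5 was 216 bases.

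The 4 Cyp2a promoters are shown because the Cyp2a genes are the subfamily with the lowest median log2 fold change. Each line gives the 100 bases before the RefSeq gene start (GRCm38.p6), with the word TATAAA in capitals.
Cyp2a4 (chr7:26307092-26307191, plus strand): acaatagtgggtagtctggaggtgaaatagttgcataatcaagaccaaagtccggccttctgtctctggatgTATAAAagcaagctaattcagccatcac
Cyp2a5 (chr7:26835239-26835338, plus strand): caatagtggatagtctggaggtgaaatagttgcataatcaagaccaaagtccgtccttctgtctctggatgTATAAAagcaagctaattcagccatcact
Cyp2a12 (chr7:27028990-27029089, plus strand): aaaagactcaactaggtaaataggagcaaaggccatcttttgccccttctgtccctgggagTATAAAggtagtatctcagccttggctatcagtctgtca
Cyp2a22 (chr7:26939387-26939486, minus strand): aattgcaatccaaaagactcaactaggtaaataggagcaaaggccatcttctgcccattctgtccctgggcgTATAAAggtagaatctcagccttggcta
TATAAA on the gene's strand began 28 bases before the start of Cyp2a4 and of Cyp2a22, 29 before Cyp2a5 and 39 before Cyp2a12. Over the RefSeq promoter windows (250 bases before to 50 after the start) the promoters of Cyp2a4 and Cyp2a5 were 98.3% identical, those of Cyp2a12 and Cyp2a22 were 90.7% identical, and those of Cyp2a5 and Cyp2a12 were 65.6% identical. The subfamily thus holds 2 pairs of near copies, which are not independent of each other.

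The targeted gene was lower on one side of both tables, and that side was read as the knockout. The authors' larger deposited table gave Cpeb4 a log2 fold change of -1.16 ± 0.11 (SE), and the smaller deposited table gave -1.10 ± 0.13. The means are printed with enough digits that the whole reads of the 4 libraries behind each one could be recovered for genes under a mean of 1000. For Cpeb4 and members with means between 1000 and 5000, the deposited fold change was needed to choose the combination, so a knockout share from such reads restates that fold change. In the larger table this holds for Cpeb4. Recovered Cpeb4 counts, divided by the libraries' size factors, were 1511 and 1657 in the wild-type libraries and 506 and 580 in the knockout libraries of the larger table. They were 689 and 634 against 193 and 225 in the smaller table. The sides did not overlap in either. Libraries are numbered within a side by depth and cannot be tied to a sample. Size factors, which measure relative depth, spanned 0.717 to 1.26 for the larger table's libraries and 0.839 to 1.64 for those of the smaller. Of the hepatocyte markers, 5 of 6 were listed, at a summed mean of 2003460 counts in the larger table, against 364 for 5 of 5 cholangiocyte markers. Kupffer and macrophage markers (6 of 6 listed) and erythroid markers (3 of 4 listed, all haemoglobin genes) summed to 2975 and 8568 counts there.

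Few members changed with genotype, and those that did were lower in the knockout. The authors' larger deposited table tested 45 members and called 3 at an adjusted p of 0.05, all lower (Cyp2a5, Cyp2a4 and Cyp2c29), where 0.296% of all tested genes were called and 0.205% were called lower. The smaller deposited table tested 41 members and called 1, Cyp2d40, also lower, where 0.266% of all tested genes were called and 0.103% were called lower. At an unadjusted p of 0.05 the larger table had 10 members lower and 0 higher, against 2.0% and 1.63% of all tested genes (3.62% either way). The smaller had 7 lower and 1 higher, against 1.96% and 2.14% (4.11% either way). The median log2 fold change over tested members was -0.06 for the larger table and -0.03 for the smaller, where the medians of all tested genes were -0.000834 and 0.000848. Values were below 0 for 32 of 45 members (71.1%) and 25 of 41 (61.0%), against 50.4% and 49.7% of all genes. Near copies that can share reads count here as separate members, so these shares do not rest on independent genes. Fewer hepatocytes of the kind that hold these enzymes and less RNA per hepatocyte cannot be told apart in bulk RNA.

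**Figure D1:**
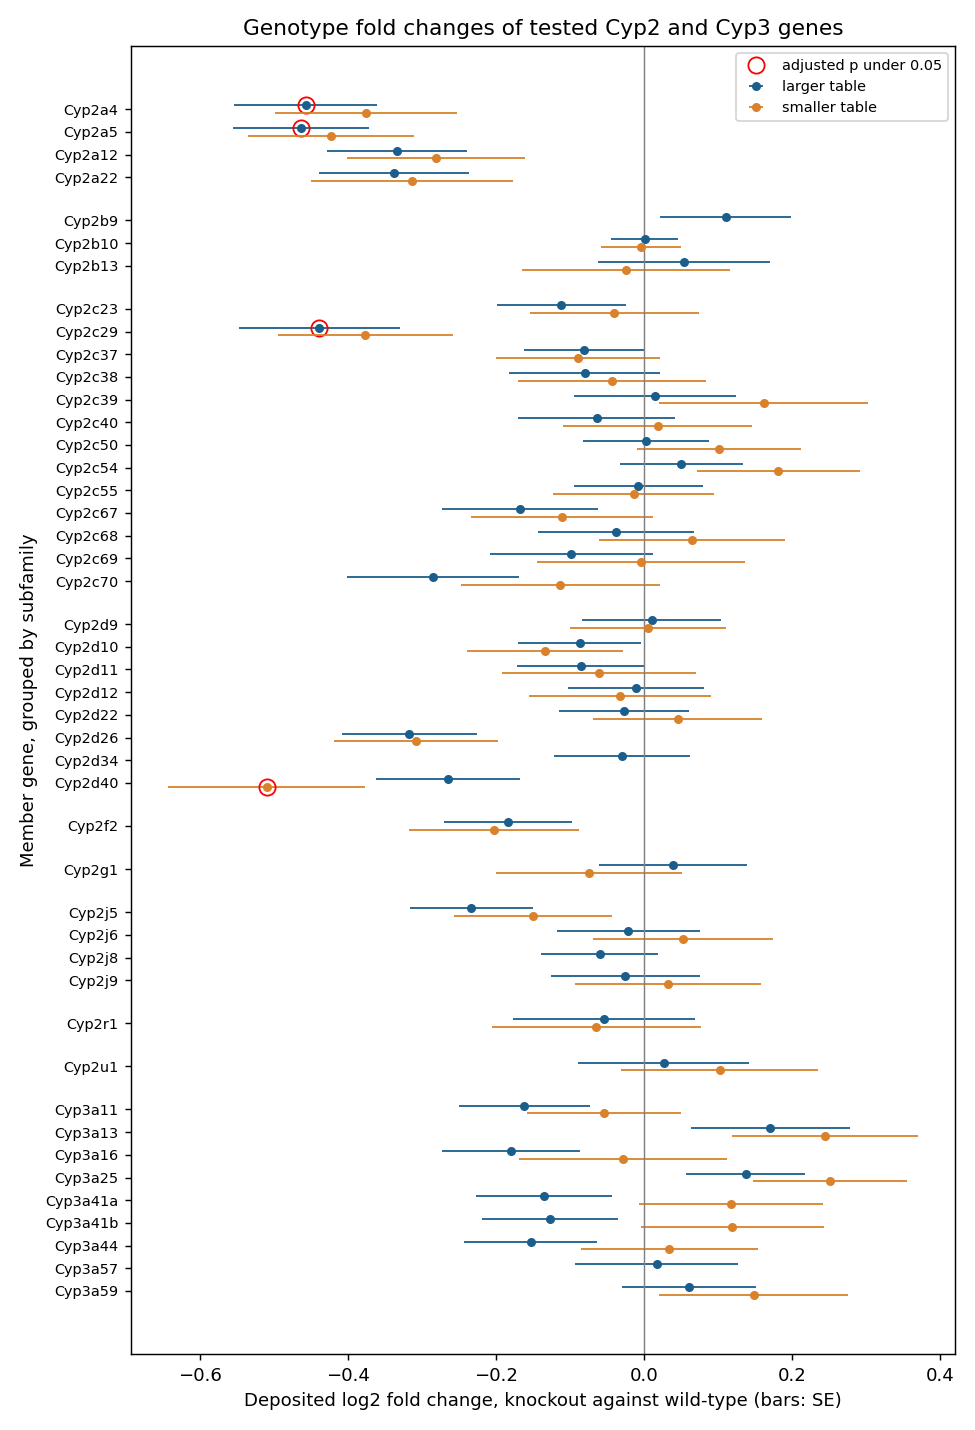
Deposited log2 fold changes, knockout against wild-type, for every member tested in at least 1 table, grouped by subfamily (points: the authors' estimates, bars: SE, blue: larger table, orange: smaller table, red rings: adjusted p under 0.05). The 4 Cyp2a genes sit between -0.28 and -0.46 in both tables, while Cyp2c, Cyp2d and Cyp3a each have genes on both sides of 0 in both tables.

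The Cyp2a genes were the subfamily with the lowest median log2 fold change in both tables. All 4 were below 0 in both tables, with medians of -0.40 in the larger and -0.34 in the smaller, and all 4 had an unadjusted p under 0.05 in each. Over the members outside Cyp2a the medians were -0.05 and -0.01. Single genes outside Cyp2a lay within its range or below it: Cyp2c29 in both tables, and Cyp2d40 and Cyp2d26 in the smaller. Cyp2a5, the coumarin 7-hydroxylase, which also oxidises nicotine, had a mean of 10788 counts in the authors' larger deposited table and a log2 fold change of -0.46 ± 0.09 (SE, adjusted p = 0.000406, DESeq2's Wald test). In the smaller deposited table its mean was 8229 counts and its fold change -0.42 ± 0.11 (adjusted p = 0.0580, DESeq2's Wald test). It fell in the first and missed the threshold in the second.

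Cyp2a4, a testosterone 15-alpha-hydroxylase, was recovered in every library. Its normalised counts in the larger table were 5932 and 5301 in the wild-type libraries against 3531 and 4068 in the knockout libraries, and the sides did not overlap. The authors' larger deposited table gave it -0.46 ± 0.10 (SE, adjusted p = 0.00134, DESeq2's Wald test). In the smaller table the wild-type libraries held 1023 and 1143 and the knockout libraries 734 and 797, again without overlap, and the deposited fold change was -0.38 ± 0.12 (adjusted p = 0.323, DESeq2's Wald test). The knockout mean was 67.7% of the wild-type mean in the larger table, where the deposited fold change helped to choose the reads and the share restates it. By the smaller table's libraries, recovered from the mean alone, it was 70.7%. Leaving out 1 library at a time kept that share between 62.9% and 72.4%, and between 67.0% and 74.8%. Since Cyp2a4 has 55.9% of its 31-base words in common with Cyp2a5, how reads were split between the 2 copies is uncertain, and the calls of these 2 genes are not separate evidence.

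The other near pair gave smaller values in the same direction. Cyp2a12, a bile acid 7-alpha-hydroxylase, had -0.33 ± 0.09 (SE) in the authors' larger deposited table (adjusted p = 0.0983, DESeq2's Wald test) and -0.28 ± 0.12 in the smaller (adjusted p = 0.852, DESeq2's Wald test). Its copy Cyp2a22 had -0.34 ± 0.10 in the larger deposited table (adjusted p = 0.162, DESeq2's Wald test). Neither passed the threshold. Cyp2a22 in the smaller table stood at 398 and 403 normalised counts in the wild-type libraries and 257 and 313 in the knockout libraries, without overlap.

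Cyp2a5, Cyp2a22 and Cyp2a12 are neighbours, whereas Cyp2a4 is separated from them by Cyp2b, Nlrp and Cyp2g1 genes, and the array holds 18 protein-coding genes over 1356 kb, 13 of them members. The Nlrp genes, Cyp2b23 and Cyp2b19 had too few reads to be tested, and their moderated fold changes lie near 0 for that reason. Of the tested neighbours, Cyp2b13 had 0.05 ± 0.12 (SE) in the authors' larger deposited table and -0.02 ± 0.14 in the smaller. Cyp2g1, an olfactory mucosa P450 in most mammals, had 0.04 ± 0.10 and -0.07 ± 0.13 in the 2 deposited tables. At the far end Cyp2f2, which activates naphthalene, had -0.18 ± 0.09 and -0.20 ± 0.11. Cyp2f2 is a periportal gene, whereas Cyp2a5 is pericentral. None of these 3 neighbours passed the adjusted threshold.

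**Figure D2:**
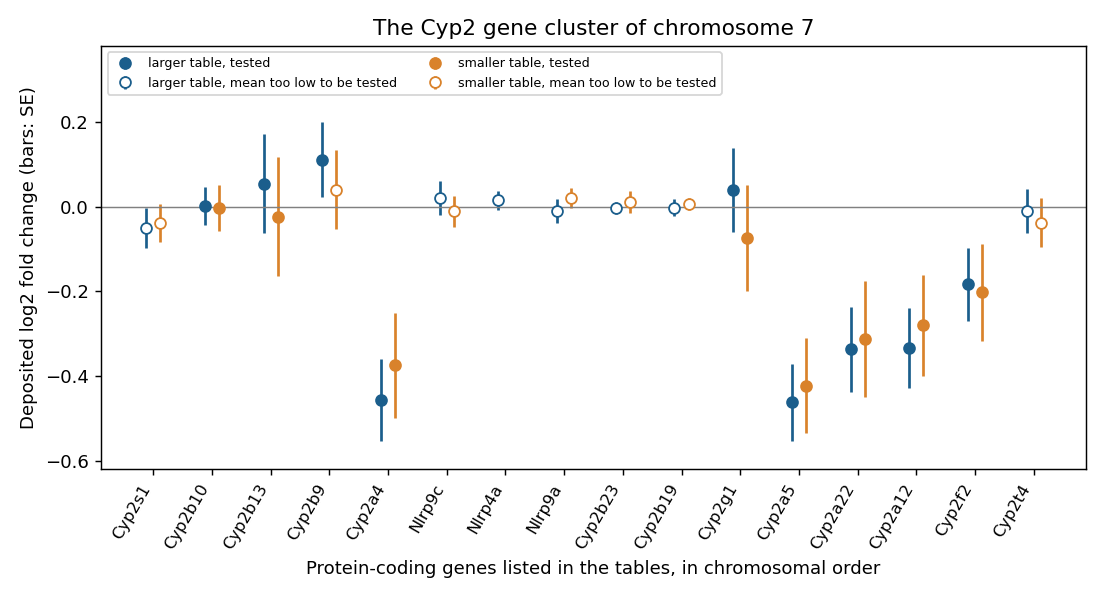
Deposited log2 fold changes of the genes of the chromosome 7 array that the tables list, in chromosomal order (points: the authors' estimates, bars: SE, open points: mean too low to be tested). The 4 Cyp2a genes lie below the tested Cyp2b genes and Cyp2g1 in both tables. Open points are moderated to near 0 by their low means and allow no comparison. The filled points of Cyp2b10, and of Cyp2b9 in the larger table, allow none either, because their direction turned with single libraries.

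Among the 13 tested Cyp2c genes 1 was called. Cyp2c29, an arachidonic acid epoxygenase of pericentral hepatocytes, fell in the authors' larger deposited table by 0.44 on the log2 scale, ± 0.11 (SE, adjusted p = 0.0248, DESeq2's Wald test), at a mean of 11181 counts. In the smaller deposited table its fold change was -0.38 ± 0.12 (adjusted p = 0.253, DESeq2's Wald test) at a mean of 7040 counts. It shares 10.5% of its words with other genes, less than any Cyp2a gene. Its closest relatives by coding sequence, Cyp2c39 (89.5% identical) and Cyp2c38 (89.1% identical), had values of 0.02 ± 0.11 and -0.08 ± 0.10 in the larger deposited table. The subfamily medians were -0.08 and -0.01.

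Cyp2c70 makes muricholic acids, the bile acids particular to mice and rats. Its normalised counts were 1061 and 941 in the wild-type libraries of the larger table and 861 and 622 in the knockout libraries, and those of the smaller table were 665 and 723 against 722 and 505. The sides were apart in the larger table and overlapped in the smaller. The authors' deposited fold changes were -0.28 ± 0.12 (SE) and -0.11 ± 0.13, and neither passed the adjusted threshold (p = 0.834 and 0.999, DESeq2's Wald test). Cyp2c50, the Cyp2c gene with the highest mean (14134 counts in the larger table), had 0.003 ± 0.09 and 0.10 ± 0.11 in the deposited tables.

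Cyp2d genes were among the most abundant members. Per kilobase of transcript, Cyp2d9, a testosterone 16-alpha-hydroxylase of male liver, had a mean of 20701 counts in the larger table, below only Cyp3a11. Its authors' deposited fold changes were 0.01 ± 0.09 (SE) and 0.01 ± 0.11. Cyp2d40 was the one Cyp2d gene called. In the smaller table its normalised counts were 910 and 1122 in the wild-type libraries and 516 and 692 in the knockout libraries, a knockout mean of 59.5% of wild-type, and the authors' deposited fold change was -0.51 ± 0.13 (SE, adjusted p = 0.0467, DESeq2's Wald test). In the larger table the libraries held 4747 and 4572 against 3366 and 4055, a knockout mean of 79.6% of wild-type that restates the deposited fold change used to choose the reads, and the deposited fold change was -0.26 ± 0.10 (adjusted p = 0.538, DESeq2's Wald test). The sides did not overlap in either table. Without 1 library at a time the share ran from 50.8% to 68.2% (smaller) and from 72.2% to 87.0% (larger). Cyp2d26 had -0.32 ± 0.09 and -0.31 ± 0.11 in the authors' deposited tables (adjusted p = 0.108 and 0.490, DESeq2's Wald test) and was not called.

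Cyp3a genes differed in sign among themselves. Cyp3a11, the main drug-oxidising Cyp3a enzyme of mouse liver and a PXR target, was the most abundant member per kilobase in both tables (28928 and 17698 counts per kb). Its authors' deposited fold changes were -0.16 ± 0.09 (SE) and -0.05 ± 0.10. Cyp3a25 had 0.14 ± 0.08 and 0.25 ± 0.10, the latter with the one unadjusted p-value under 0.05 on the higher side (adjusted p = 0.786, DESeq2's Wald test). Cyp3a13 had 0.17 ± 0.11 and 0.25 ± 0.13. The smaller table's normalised counts were 3232 and 3000 in the wild-type libraries against 4586 and 3262 in the knockout libraries, chosen with the help of the deposited fold change. The sides were apart there by a small margin, and without the deeper knockout library the knockout share moved from 126% of wild-type to 105%. No Cyp3a gene was called in either table.

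Cyp2j and the single-gene subfamilies gave no call. Cyp2j5, an arachidonic acid epoxygenase of liver and kidney, had -0.23 ± 0.08 (SE) and -0.15 ± 0.11 in the authors' deposited tables (adjusted p = 0.458 and 0.999, DESeq2's Wald test). Cyp2j8, at 21.5 and 22.3 normalised counts in the wild-type libraries and 16.2 and 14.4 in the knockout libraries of the larger table, was apart between the sides but not called. Cyp2r1, the vitamin D 25-hydroxylase, had 188 and 151 normalised counts in the wild-type libraries of the larger table and 155 and 162 in the knockout libraries. Its sides overlapped, as they did for Cyp2u1, a fatty acid hydroxylase, at 1049 and 898 against 1156 and 846. The remaining single genes were near the floor of the data: Cyp2s1 had 15 reads in the wild-type libraries and 6 in the knockout libraries of the larger table, Cyp2t4 had 14 and 13, and Cyp2ab1 had 1 and 3. Cyp2w1 was listed in neither table. These 4 genes were not tested by the authors.

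Recovered reads put the calls beside the spread of single libraries. Among tested members with reads recovered from the mean alone, 2 of 12 in the larger table had knockout libraries both below the wild-type libraries and 0 had both above, where 37.0% of all such genes did not overlap (19.7% below and 17.3% above). Of 20 such members of the smaller table, 3 were apart below and 3 above, where 38.6% of all such genes did not overlap (1548 of 7734 below and 1438 above). With so few members, these counts are near the background and are no result about the members. The members with the most reads, Cyp2a5 and Cyp2c29 among them, were too abundant for their reads to be recovered.

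**Figure D3:**
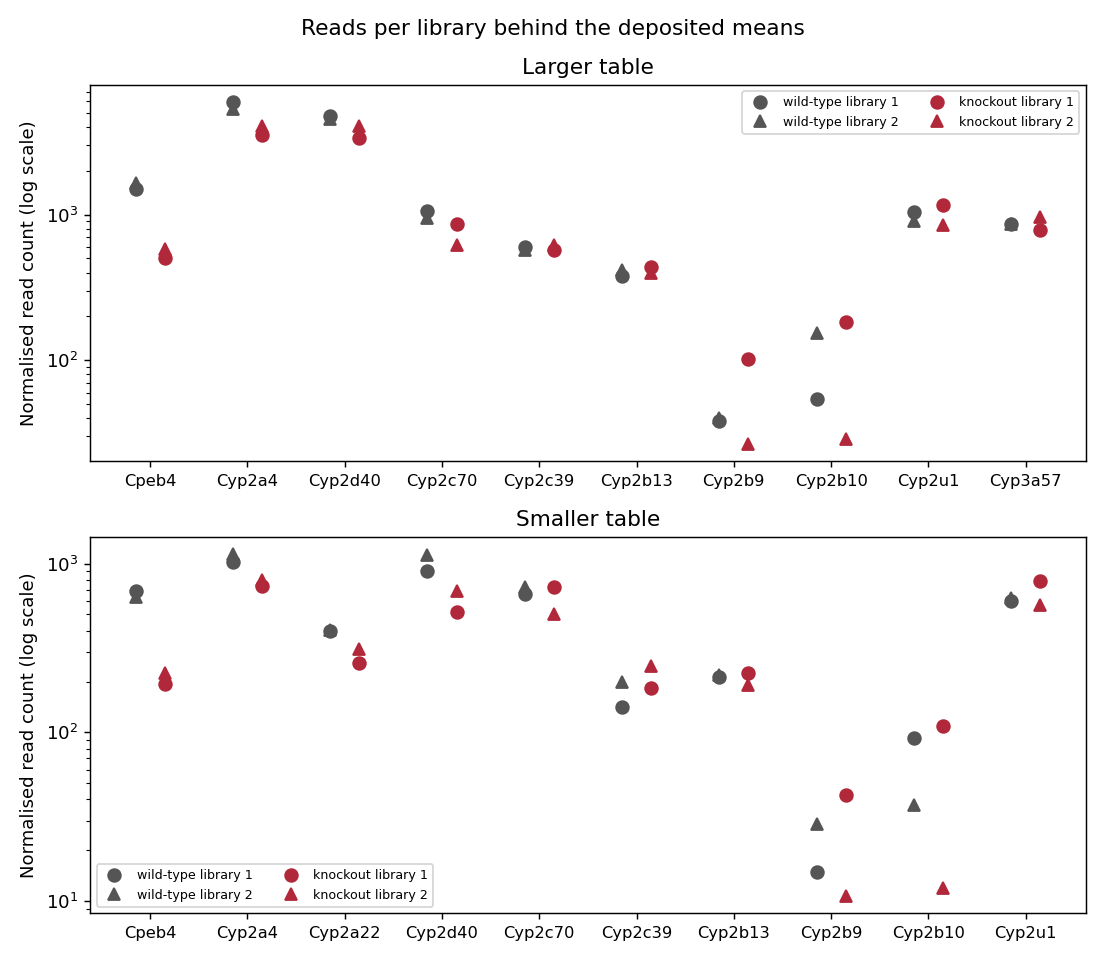
Normalised read counts per library (log scale) recovered from the deposited means for Cpeb4 and selected members (grey: wild-type, red: knockout, circles: the deeper library of a side, triangles: the other). Cyp2a4 and Cyp2d40 have all knockout points below the wild-type points in both tables, and Cyp2b9 and Cyp2b10 spread widest within the knockout side.

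Cyp2b10 and Cyp2b9 varied more between the knockout libraries than between the genotype means. Cyp2b10, the classic phenobarbital- and CAR-induced P450, had 54.1 and 153 normalised counts in the wild-type libraries of the larger table and 183 and 28.8 in the knockout libraries. The smaller table's libraries held 93.1 and 37.0 against 109 and 11.9. Without 1 library at a time the knockout share of wild-type ran from 27.7% to 196% and from 18.3% to 168%, so its direction turned with single libraries. The high and the low knockout library thus differed 6.36-fold and 9.18-fold. That spread was reached by 0.160% and 0.164% of the 9393 and 8529 genes with a mean from 20 to 1000 and reads in both knockout libraries. The authors' deposited fold changes of Cyp2b10 were 0.001 ± 0.04 (SE) and -0.004 ± 0.05. Cyp2b9 followed the same libraries on the knockout side, with 103 and 26.6 in the larger table and 42.6 and 10.7 in the smaller. Cyp2b10 and Cyp2b9 were singled out after their values were seen. Across 4768 genes, differences between the 2 libraries of a side went together between the tables (Pearson's r = -0.68 for the wild-type and 0.69 for the knockout libraries, where the sign depends on how libraries are numbered). Both tables may thus rest on the same mice, and they cannot be treated as independent measurements.

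No member's fold change was called different between the tables. A z test of the difference, adjusted over 11604 genes, called 0 of the 41 members tested in both, and 2 genes in all (0.0172%), with 0 members at an unadjusted p under 0.05 (0.138% of genes) and a lowest unadjusted p of 0.102 for Cyp3a41a. The test treats the tables as independent, and the z values of all genes had an SD of 0.54, so it is conservative here. For Cyp2d40 the smaller table minus the larger gave -0.24 ± 0.16 (SE of the difference).

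Levels, in contrast to fold changes, differed widely between the tables for some copies. Relative to the median of all genes tested in both (1.19 times higher in the larger table), 11 of the 41 members had a mean more than 4-fold lower in the smaller table, where 3.36% of all genes did. The mean of Cyp3a41a was 7166 counts by the larger table against 49.6 by the smaller, a ratio of 145. The ratios were 135 for Cyp3a41b, 117 for Cyp3a44, 18.4 for Cyp3a16 and 6.29 for Cyp3a59. Among Cyp2d genes they were 12.7 for Cyp2d11, 8.58 for Cyp2d12 and 5.17 for Cyp2d40, and for the remaining 3 they were 13.0 for Cyp2a22, 5.90 for Cyp2c69 and 5.09 for Cyp2a4. Of members tested only in the larger table, Cyp3a57 (ratio 242), Cyp2d34 (113) and Cyp2j8 (8.34) were also past that limit. Untested Cyp2b19 and Cyp2c66 were past it on a handful of reads, with Cyp2c66 higher in the smaller table.

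Close relatives of these copies did not shift alike. Cyp2a5 was 1.31 times higher in the larger table while its near copy Cyp2a4 was 5.09 times higher. Cyp3a25 was 1.47 times higher while Cyp3a59, with 97.5% of its coding bases, was 6.29 times higher. The 10 members sharing 50% or more of their words with another gene included 5 past the limit, and the 4 sharing under 1% included none. Between these, 5 of 13 members sharing 25% to 50% and 1 of 14 sharing 1% to 25% were past it. Among genes other than members, the share past the same lower limit was 0.954% under 1% of shared words and 1.70% from 1% to 25%. It was 10.9% from 25% to 50%, 18.0% between 50% and 75% and 14.8% above that. Cyp2d34 and Cyp3a57, with 14.5% and 22.6% of their words shared, were among the most different. How reads with several matches were counted is not given, its part in these ratios was not tested, and the RNA preparation cannot be told apart from it. Fold changes between genotypes compare libraries within 1 table.

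**Figure D4:**
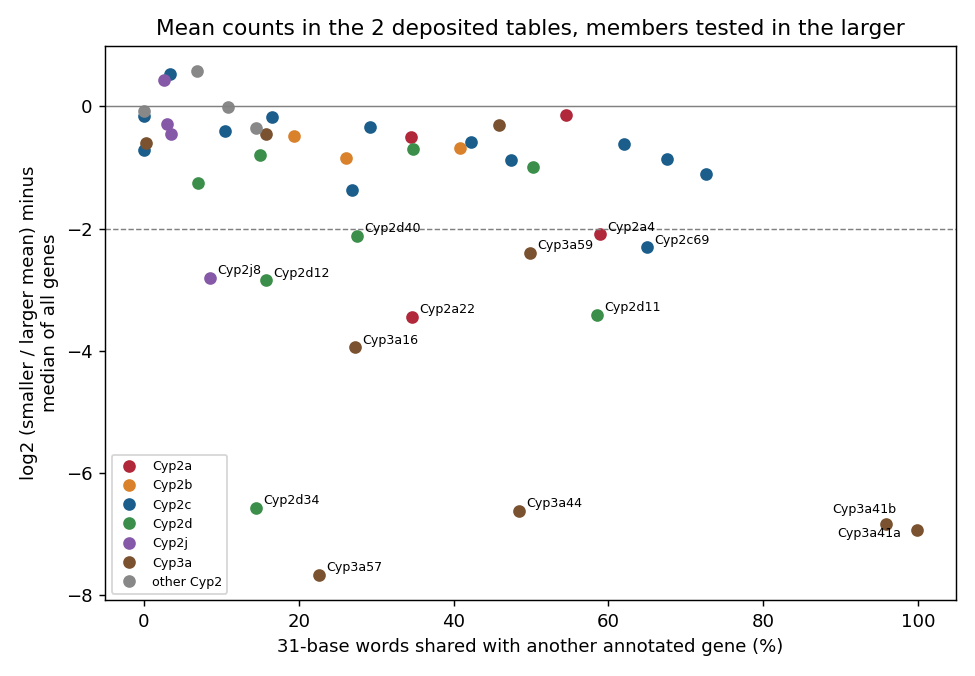
Log2 ratio of the deposited means (smaller over larger table, minus the median of all genes) against the percentage of a gene's 31-base words found in another annotated gene, for the members tested in the larger table (colours: subfamilies, dashed line: the 4-fold limit). The 14 named members lie below the limit, with Cyp3a57, Cyp3a41a, Cyp3a41b, Cyp3a44 and Cyp2d34 lowest.

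The Cyp3a41 copies show what the table holds for a pair that can hardly be told apart. In the smaller table Cyp3a41a had 39 and 32 reads in the wild-type libraries and 74 and 59 in the knockout libraries, and Cyp3a41b had 38 and 31 against 74 and 57. Both pairs of sides were apart, but the normalised counts of Cyp3a41a (44.8 and 38.2 against 45.0 and 70.3) show a margin of under 1 count. The authors' deposited fold changes were 0.12 ± 0.12 (SE) for each in the smaller table and -0.13 ± 0.09 for each in the larger.

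The regulators and partners of these enzymes were not called. The list held the receptors and factors Nr1i3, Nr1i2, Rxra, Hnf4a, Nr1h4, Ppara, Ahr, Nfe2l2 and Esr1 and the electron and haem suppliers Por, Cyb5a, Cyb5b, Cyb5r3, Pgrmc1, Alas1 and Fech. All 16 were tested in both tables, 0 were called at an adjusted p of 0.05 and 0 had an unadjusted p under 0.05 (DESeq2's Wald test). The authors' deposited fold changes ran from -0.20 (Ppara) to 0.10 (Esr1) in the larger table and from -0.19 (Nr1h4) to 0.09 (Esr1) in the smaller, with medians of -0.06 and -0.03. CAR (Nr1i3) had 0.06 ± 0.11 (SE) and 0.01 ± 0.14, PXR (Nr1i2) -0.05 ± 0.09 and -0.09 ± 0.11, and the reductase Por -0.07 ± 0.10 and -0.03 ± 0.12. The median of this list in each table thus lay close to that of the members.

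Genes outside the family were read for comparison. Of xenobiotic receptor targets, 1 of 24 tested was called in the larger deposited table and 2 of 23 in the smaller. The glutathione transferase Gstt1 fell in both (-0.38 ± 0.08 and -0.44 ± 0.11, SE), and the organic anion transporter Slco1a4 rose in the smaller (0.56 ± 0.13). Medians of this list were -0.06 and -0.03. At an unadjusted p under 0.05 (DESeq2's Wald test), the larger table had 2 lower and 0 higher, and the smaller 2 lower and 2 higher. Other cytochromes P450 had 0 of 27 and 0 of 25 called, with medians of 0.0003 and 0.03 (at an unadjusted p under 0.05 in DESeq2's Wald test, 2 lower and 2 higher in the larger table, 0 lower and 1 higher in the smaller). Pericentral genes other than members had 0 of 14 and 0 of 13 called, with medians of -0.07 and -0.06 (2 and 0 with an unadjusted p under 0.05). Periportal genes had 1 of 16 called in each table, Etnppl, which rose, with medians of 0.12 and 0.18 and 11 and 13 of 16 above 0. Periportal genes with an unadjusted p under 0.05 numbered 4 above and 2 below 0 by the larger table, and 5 above and 1 below by the smaller. Female-biased genes other than members had 0 of 9 and 0 of 7 called (1 and 0 with an unadjusted p under 0.05). Their medians were -0.07 and -0.11. Male-biased genes had 1 of 18 (Elovl3, lower) and 1 of 17 (Serpina1e, higher) called, with medians of 0.07 and 0.08. At an unadjusted p under 0.05 (DESeq2's Wald test), 3 of them were lower and 3 higher in the larger table, and 1 lower and 3 higher in the smaller. Haemoglobin genes stood at medians of -0.30 and -0.39, 3 of 3 below 0 and 3 of 3 with an unadjusted p under 0.05 in each table, and Kupffer and macrophage markers at -0.08 and -0.09, 6 of 6 below 0, without a call. The values of these markers lay on the same side of 0 as those of the Cyp2a genes, and the part of blood and Kupffer cell RNA in the Cyp2a values was not tested. The hepatocyte markers stood at -0.11 and -0.10, with 4 of 5 below 0 in each table. In each, 1 of them had an unadjusted p under 0.05 in DESeq2's Wald test, on the lower side. Stellate markers stood at -0.11 and -0.08, with 4 of 4 and 2 of 3 below 0. Endothelial markers stood at -0.002 and 0.05 and cholangiocyte markers at -0.05 and -0.05, without a call.

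Sequence features were set beside the members because CPEB proteins bind U-rich elements in 3′ untranslated regions. The words TTTTAT and TTTTAAT were read in the sense of the transcript. They were found in 18 of 43 tested members that have an annotated 3′ untranslated region (41.9%) and in 60.3% of other tested genes. Members have shorter regions, with a median of 335 bases against 1017. Within the length range of the members the shares were 42.4% and 37.7%. Of the called genes, Cyp2a5 and Cyp2c29 hold 1 such word each, shown in capitals.
Cyp2a5 (chr7:26843345-26843374, plus strand): gtttatgctcaTTTTATtagtgaatcacat
Cyp2c29 (chr19:39330605-39330634, plus strand): tgtattttctcTTTTATataacagttttct
Cyp2a4 and Cyp2d40, also called, hold none in the annotated transcript used. The word lies 167 bases from the end of the Cyp2a5 transcript and 78 bases from that of Cyp2c29.

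Promoters were compared by subfamily, with 49 of 57 members matched to a RefSeq window. TATAAA on the gene's strand was present in 17 of 38 tested members (44.7%) and in 8.32% of all 32851 RefSeq promoters. CAAAGTCCA, a word of HNF4-type sites read on both strands, was present in 9 of 38 (23.7%) and in 0.475% of all. AGGTCA, the core word of nuclear receptor sites, on both strands, was in 14 of 38 (36.8%) and in 16.3% of all. Words were searched separately, and overlaps between them were not removed. CAAAGTCCA occurred in 6 of 13 Cyp2c and 4 of 9 Cyp3a promoters and in no other subfamily, several of them copies of one another. One site from each of 4 promoters is shown in 30 bases, with the word in capitals.
Cyp2c70 (chr19:40187331-40187360, minus strand): aggtcaaactCAAAGTCCAaactctgtgta
Cyp2c40 (chr19:39812840-39812869, minus strand): atcattgagaCAAAGTCCAtttggaagaga
Cyp3a11 (chr5:145879944-145879973, minus strand): aagagagtacCAAAGTCCAgtgatgcaaag
Cyp3a41a (chr5:145720212-145720241, minus strand): aagagacgacCAAAGTCCAggtgatgcagg
The word starts 64 bases before the gene start of Cyp2c70, 45 before Cyp2c40, 109 before Cyp3a11 and 95 before Cyp3a41a. Hnf4a itself had 0.03 ± 0.10 (SE) and 0.03 ± 0.12 in the authors' deposited tables. TTCNNNGAA, a STAT5-type word, was in 0 of 38 tested members and 8.30% of all promoters, TTGCNNCAA, a C/EBP-type word, in 2 of 38 and 2.08%, and an HNF1-type word of 13 letters in 0 of 38 and 0.0396%. A match is a description of these letters and not a bound site.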

How the data were processed

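RNA libraries of 8 samples were sequenced. STAR 2.3.0e, DESeq2 1.6.3 and mm10 are named in the submitters' processing notes; annotation, counting, strand and multi-mapping settings: not given in the sources used here. Per the file headers, each deposited table gives a mean signal (counts divided by size factors, averaged over libraries), a log2 fold change and its SE, a Wald score, and a p-value and adjusted p-value. Genes with no adjusted p were left out of tests. The log2 fold changes are moderated, so they understate low genes. From each deposited mean the whole reads of its 4 libraries were recovered: 19108 and 17274 genes under a mean of 1000 had exactly 1 combination at 15 digits (100%), and Cpeb4 and members up to 5000 needed 1 combination within 0.015 log2 of the implied fold. The method was tested on simulated data. Sequences came from GENCODE M21 and RefSeq; 23484 and 21080 identifiers matched. Named genes were Cpeb4, those called, the 10 lowest p-values of each table, the highest mean of each subfamily, means past the 4-fold limit, single-gene subfamilies, every receptor or partner, and list genes called. Members and lists were chosen with earlier results of these data known. Alternatives were another threshold, no filter or a mean of at least 100, and leaving out members sharing over 25% of words. Analyses used Python 3.11.15 with numpy 2.4.6, pandas 2.3.3, scipy 1.17.1 and biopython 1.88.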

Additional observations from a re-analysis of the deposited data

How the results depend on the processing

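The count of called members depended on the threshold and on near copies. In the larger table it was 3, 4 at a threshold of 0.1, 3 with no filter on the mean and 3 with a mean of at least 100, and 1 (Cyp2c29) without members sharing over 25% of their words. In the smaller table it was 1, 2 at a threshold of 0.1, 0 with no filter (Cyp2d40 at adjusted p = 0.0798, Wald test of DESeq2), 2 with a mean of at least 100 (Cyp2a5 at 0.0481) and 0 without the sharing members. The filters change how many genes are adjusted over, and leaving out members changes how many are counted. The member medians stayed below 0 under all 4 alternatives in each table, from -0.08 to -0.03 and from -0.04 to -0.01. The difference between tables called 0 members under both alternatives, and 11 members had lower means in the smaller table relative to the median or to summed means. The authors' test was not refitted without a library. No paired analysis was possible because the tables' columns carry no sample and the recovered libraries cannot be tied to the replicate numbers of the labels. Depth limits Cyp2s1, Cyp2t4 and Cyp2ab1, at 1 to 15 reads a side.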

Other observations

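Other genes differed between the same 2 knockout libraries as Cyp2b10 and Cyp2b9. Akr1b7, an aldo-keto reductase, had 23.5 and 7.75 normalised counts in the knockout libraries of the larger table and 13.4 and 4.77 in those of the smaller. With means of 14.2 and 8.62 counts it was tested in neither table. Of the other cytochromes P450, Cyp11a1 had 14.6 and 0 in the larger table's knockout libraries and 15.8 and 0 in the smaller's. Cyp21a1 had 17.8 and 3.32, and 11.6 and 3.58, and both genes were untested. Tsku, a secreted protein of the liver, went the other way, with 453 and 820, and 269 and 445. Cyp26b1 did so too, with 69.6 and 159, and 28.0 and 67.9. These genes were chosen after their values were seen, and the pattern was not tested. The summed Kupffer and macrophage markers with recovered reads stood at 1908 and 1058 normalised counts in the wild-type libraries of the larger table and at 668 and 1184 in the smaller. Much of that difference was Marco, a scavenger receptor of macrophages, at 549 and 79.4, and 66.7 and 397, in the same libraries. The knockout libraries held summed marker counts of 1131 and 1133 in the larger table and 741 and 614 in the smaller. Thus the sides overlapped in both tables.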
